A study of Mus musculus with 40 samples.

Results

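The lung between 4 and 8 weeks of age was measured in male C57BL/6 mice on 10 of the 40 arrays of a study of juvenile growth. These were the 5 arrays titled as lung at 4 weeks and the 5 titled as lung at 8 weeks, and they were taken by tissue and age alone. The submitters describe growth as slow at 4 weeks and very slow at 8 weeks, and the labels name no transgene, diet or treatment for any group. The remaining groups, also of 5 arrays, are kidney (1, 4 and 8 weeks), heart (1 and 4 weeks) and the lung at 1 week. Total RNA was extracted from each organ, converted to biotin-labelled cRNA and hybridised to Affymetrix arrays, which report the brightness of short DNA probes grouped into probe sets. The design gives 5 animals for each age, and the p-values below set the difference between group means against the spread between these samples.

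In the mouse, alveoli are formed mainly after birth, when fibroblasts of the alveolar walls deposit elastin, collagens and other matrix proteins along the future septa. Later growth of the organ follows the growth of the body, and elastin is renewed little in the adult. Over the same period the lung takes up immune cells, among them dendritic cells, macrophages and lymphocytes, and most of its cells run a circadian clock in which paired activators and repressors control each other's transcription.

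The arrays carried the transcripts of their labelled organ. Sftpc, the surfactant protein of alveolar type 2 cells, gave signals between 20101 and 35377 in the 10 lungs and between 98.5 and 263 in the 10 kidneys of the same ages. Ager, a receptor of alveolar type 1 cells, lay between 18442 and 27593 in the lungs, and Scgb1a1, the secretoglobin of airway club cells, between 25856 and 41466. Umod, the uromodulin of kidney tubules, reached at most 56.0 in the lungs. No 2 arrays held identical values, and the correlation between arrays across genes ran from 0.946 to 0.982. For values at 1 week the mean of 4 arrays is given, because the array titled as replicate 4 of the 1-week lung had Sftpc at 1982 and the heart myosin Myh6 at 36022, against 23328 to 28922 and 611 to 1868 in the others.

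Some arrays stood apart from the rest of their age group. Skeletal muscle transcripts were high in 2 of the 8-week lungs, whose muscle gene mean lay more than 1 log2 unit above the median of the 10 arrays. The mean of log2(signal + 16) over 47 muscle genes was 8.59 in 8-week replicate 1 and 9.52 in replicate 3. It lay between 6.80 and 7.19 at 4 weeks and between 6.96 and 7.81 in the other 8-week arrays. Acta1, the actin of skeletal muscle fibres, gave 208, 188, 97.7, 126 and 127 at 4 weeks and 4885, 205, 15094, 642 and 1703 at 8 weeks in replicates 1 to 5. Myh4, a fast muscle myosin, stayed between 7.30 and 17.1 at 4 weeks and gave 408, 11.1, 4938, 280 and 271 at 8 weeks in replicates 1 to 5. Of the 47 genes, 35 exceeded every 4-week array in replicate 1, 3 in replicate 2, 40 in replicate 3, 17 in replicate 4 and 21 in replicate 5. Replicates 4 and 5 were kept in the fits below that leave out the 2 muscle-high arrays, so those fits still hold muscle transcripts. Of the 34 muscle genes tested, 0 were called by limma and 16 had an unadjusted p below 0.05, with a median log2 change of 1.18 and of 0.41 without the 2 muscle-high arrays. Those 2 arrays were picked by their mean over this same list, so a lower median without them was bound to follow.

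Replicate 3 at 8 weeks also differed in other cell type markers. Its mean over the 28 B and plasma cell genes was 9.79, against 8.41 to 8.66 in the other 8-week arrays and 8.26 to 8.42 at 4 weeks, and the immunoglobulin heavy chain gene Ighm read 20690.5 there. Its mean over 24 adipocyte genes was 9.98, against 8.45 to 9.28 in the other 8-week arrays and 8.52 to 9.47 at 4 weeks. Its mean over 26 airway genes was the lowest of the 10 arrays at 9.41, against 9.82 to 10.33. The same held for its mean over 22 cardiac muscle genes, at 8.26 against 8.53 to 9.38. A separate difference lay in the poly-A controls, bacterial RNAs that are usually spiked in during labelling. Their mean was 11.04 in 4-week replicate 1, 10.94 in 8-week replicate 1 and 11.01 in 8-week replicate 4, and 9.86 to 10.06 in the other 7 arrays. The part of these differences in the age comparison was not tested directly, so counts are given with the arrays and without them.

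**Figure D1:**
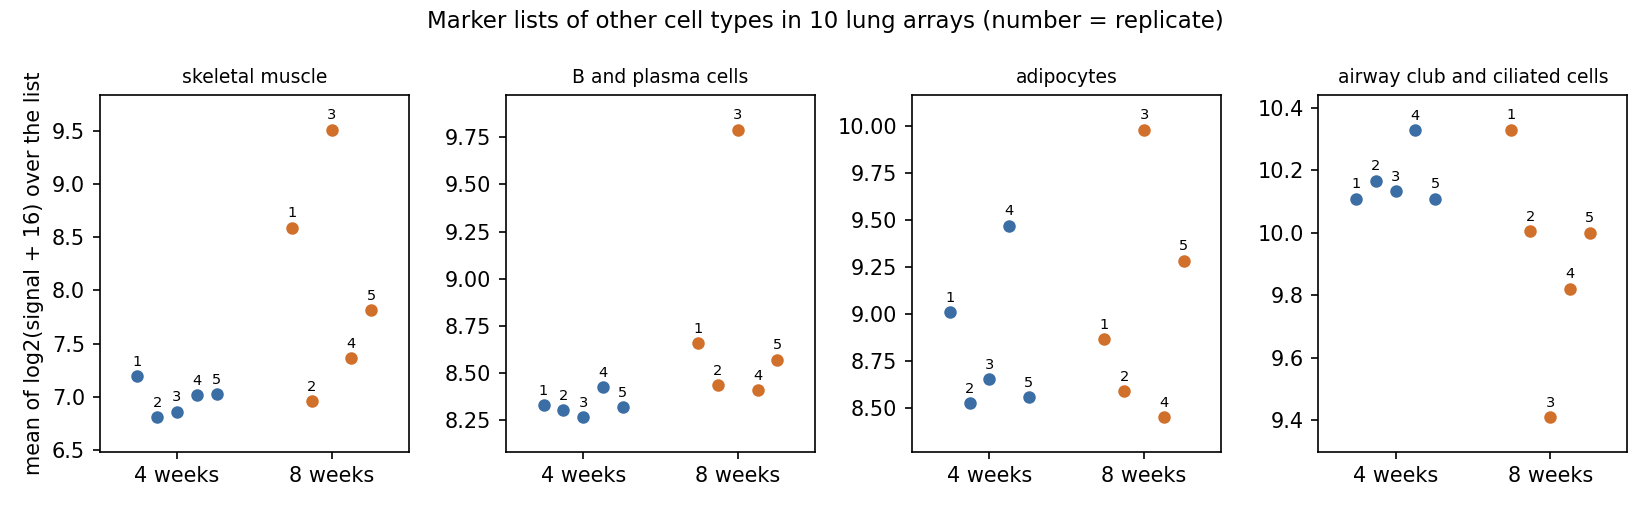
Each point is 1 lung array, placed by age and by its mean log2(signal + 16) over the genes of a marker list, with the replicate number above it. Replicates 1 and 3 at 8 weeks stand above the other arrays for skeletal muscle at 8.59 and 9.52, and replicate 3 is also highest for B and plasma cells at 9.79 and for adipocytes at 9.98.

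Change with age in the lung was modest in size. Of 13365 genes tested, 232 (1.74%) differed between 4 and 8 weeks at an adjusted p below 0.05 by limma, 101 higher (0.756%) and 131 lower (0.98%) at 8 weeks. At least 2-fold differences were found for 15 of them, 5 higher and 10 lower. Among these 15, some passed the signal filter of 117.9 through 1 age only. Vps33b and Slc6a20a had 4-week means under it, and Ccna1, Rab3c and Spink5 8-week means. Signals under the filter are near background, so the sizes of these changes are uncertain. The median log2 change of all tested genes was -0.00796. An unadjusted p below 0.05 by limma was found for 2235 of the 13365 genes. The list counts at that threshold with all arrays are read against this background. The arrays of both ages did not overlap for 227 of the 232 genes and for 718 of all tested genes (5.37%). Because of that, keeping a direction when arrays are left out is no sign of stability for these genes.

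The number of calls depended on the arrays used. Without the 2 muscle-high arrays, 50 genes (0.374%) were called, 12 higher (0.0898%) and 38 lower (0.284%), of which 43 were also called with all arrays. The log2 changes themselves were close to those with all arrays: the median ratio of both over the 232 genes was 0.968, and all 232 had an unadjusted p below 0.05. The 232 genes were chosen by their p-values in a fit that holds the same remaining arrays, so this closeness is no sign of stability either. With the muscle mean as a covariate, 4 genes (0.0299%) were called, all lower at 8 weeks. With the poly-A level as a block, 224 genes were called, 190 of them shared, and among the 7 arrays with ordinary poly-A controls 7 genes were called. The remaining 3 arrays hold only 1 at 4 weeks and were not fitted alone. The fold changes below are on the log2(signal + 16) scale, which understates the change of dim genes, and each change is 8 weeks minus 4 weeks with its standard error.

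Elastin and its partner Mfap4 were lower by more than 2-fold at 8 weeks. Eln encodes tropoelastin, the soluble subunit that is crosslinked into elastic fibres. Its signals were 5691, 7022, 6614, 6396 and 8043 at 4 weeks and 2954, 3319.8, 2432, 2428 and 4360.1 at 8 weeks. The highest 8-week array lay below the lowest 4-week array, and Eln fell 2.21-fold (log2 change -1.15 ± 0.16, adjusted p = 0.00963). Mfap4, a microfibril-associated glycoprotein of elastic fibres, gave 7001, 10420.5, 10452, 9159 and 9222 at 4 weeks and 3119, 4068, 4445, 3651 and 5543 at 8 weeks, again without overlap. Mfap4 fell 2.24-fold (log2 change -1.16 ± 0.16, adjusted p = 0.00803). At 1 week the mean signals were 19381 for Eln and 15412 for Mfap4, above both later ages.

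Of 18 tested genes of elastic fibre assembly, 2 fell, 1 rose and the median log2 change was -0.22. The one that rose was Efemp1, fibulin-3, from 2933 ± 204 to 3753 ± 263 (mean and SD of 5 arrays each; log2 change 0.35 ± 0.075, adjusted p = 0.0415). Its call was held in 1 of 10 fits that each left out 1 array, the one without 8-week replicate 3, and the adjusted p reached 0.0996. It was also lost with the poly-A block (adjusted p = 0.0562). In the fit without the muscle-high arrays Mfap4 was called (adjusted p = 0.0456), and Eln was not, with a log2 change of -1.03 and an adjusted p of 0.0526. Eln and Mfap4 were called in all 10 fits that left out 1 array.

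Part of the collagens and their partners fell as well. Of 43 tested genes of this list 11 fell, 1 rose and 31 did not pass the test, and the median log2 change was -0.27. The 3 listed chains of collagen VI, which forms beaded filaments around cells, fell: Col6a1 with a log2 change of -0.57, Col6a2 with -0.66 and Col6a3 with -0.68. Col6a3 gave 4700.5, 4656, 4317, 4416 and 4655 at 4 weeks and 2772, 2639, 2742, 2911 and 3132 at 8 weeks, so that every 4-week array exceeded every 8-week array by a wide margin. It had the smallest adjusted p of the list (0.00315). Fn1, fibronectin, to which cells attach through integrins, gave 10448, 11369, 10956, 12454 and 11911 at 4 weeks and 6884, 7566, 7780.1, 7319.7 and 7805 at 8 weeks. The groups were apart for Fn1 as well (log2 change -0.61 ± 0.07, adjusted p = 0.0045).

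Basement membrane genes were among those that fell. Nid1, nidogen, which links laminin and collagen IV networks, went from 4250.3 ± 178 to 2889 ± 203 (log2 change -0.56 ± 0.068, adjusted p = 0.00482). Lamc1, a laminin chain, fell with a log2 change of -0.59. With the median of each gene's probe sets in place of the brightest one neither was called (log2 change -0.28 and adjusted p = 0.117 for Nid1, -0.60 and 0.277 for Lamc1). The fibrillar chain Col1a2 fell from 14770.3 ± 1703 to 10170.0 ± 649.7 (log2 change -0.53 ± 0.088, adjusted p = 0.0146). Its partner Col1a1 had signals of 3254, 3859.7, 5259, 5887 and 5211 at 4 weeks and 3532, 3517, 2502, 3944 and 2897 at 8 weeks. These overlapped, and Col1a1 did not pass the test (log2 change -0.50 ± 0.18, adjusted p = 0.186). A second Col1a1 probe set, with means of 1765 and 945, had a log2 change of -0.90. The missing call thus rests on the brighter of 2 probe sets.

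Col3a1, the chain of collagen III, fell by 0.43 on the log2 scale on its brightest probe set (adjusted p = 0.0442). That call was held only without 4-week replicate 1 and lost in the other 9 fits that left out 1 array (adjusted p up to 0.105). A second Col3a1 probe set, with means of 2063 and 1258, had a larger fall, with a log2 change of -0.70. Thbs1, thrombospondin-1, a matrix protein that cells release on injury or activation, ran against the list. It gave 608, 522, 605, 668 and 627 at 4 weeks and 1295, 1042, 895, 948 and 812 at 8 weeks, higher in each 8-week array (log2 change 0.69 ± 0.12, adjusted p = 0.0183). Leaving out 4-week replicate 2 ended that call (adjusted p = 0.0541). Col6a1, Col6a2, Col6a3, Fn1, Nid1 and Lamc1, 6 of the list, were called lower without the muscle-high arrays, and 0 were called higher. In that fit the list median was -0.24, and the other 6 called members, Thbs1 (adjusted p = 0.0568), Col1a2 (0.108), Col3a1 (0.211), Col5a2, Col16a1 and Postn, lost their call.

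**Figure D2:**
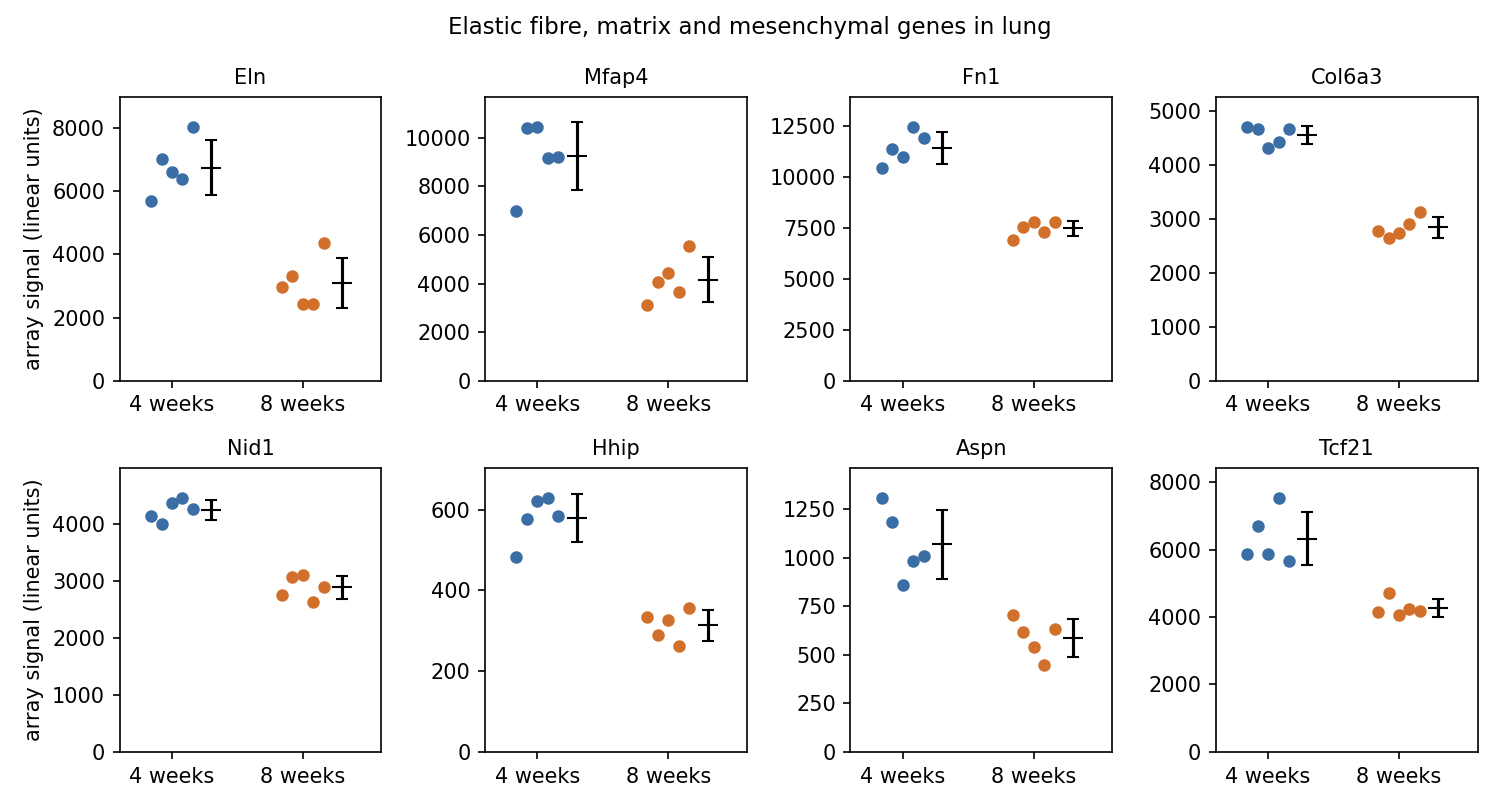
Linear array signals of 8 matrix and mesenchymal genes, with 5 arrays at 4 weeks (blue) and 5 at 8 weeks (orange); black marks are the mean and SD. In every panel the 8-week arrays lie below the 4-week arrays, from 2428 to 4360.1 against 5691 to 8043 for Eln.

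The mesenchymal cells that make this matrix were followed by their own marker genes. Of 23 tested fibroblast and lipofibroblast genes 7 fell and 0 rose, with a median log2 change of -0.18. Aspn, asporin, a small proteoglycan that binds collagen, gave 1306, 1184, 859.6, 986 and 1006 at 4 weeks and 704, 616, 538, 449.7 and 635 at 8 weeks. It fell 1.79-fold without overlap (log2 change -0.84 ± 0.14, adjusted p = 0.0143). Tcf21, a transcription factor of lung lipofibroblasts, fell from 6318 ± 784 to 4269.9 ± 259 (log2 change -0.56 ± 0.089, adjusted p = 0.0127). Wnt5a, a secreted signal of septal fibroblasts, gave a log2 change of -0.62 (adjusted p = 0.0352), with overlap between the ages. Its call was held only without 4-week replicate 3 or without 8-week replicate 1, and the adjusted p otherwise reached 0.0919. With the median of its probe sets the log2 change was -0.33 (adjusted p = 0.199). Pdgfra, a receptor of alveolar fibroblasts and their myofibroblast precursors, was at 6471 ± 379 and 5782 ± 657 and did not pass the test (adjusted p = 0.363).

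In smooth muscle and pericytes 2 of 25 tested genes fell, 1 rose, and the median was -0.15. Hhip, the decoy receptor that binds hedgehog ligands, gave 481, 577, 622, 628 and 585 at 4 weeks and 335, 289, 326, 262 and 356 at 8 weeks. The groups were clearly apart (log2 change -0.85 ± 0.10, adjusted p = 0.00482), and at 1 week the mean was 1874. Tagln, transgelin, an actin-binding protein of contractile cells, fell with a log2 change of -0.51 (adjusted p = 0.0249), but not without 4-week replicates 2, 3 or 5 or 8-week replicate 2 (adjusted p up to 0.0732). Acta2, smooth muscle actin, lay between 4913 and 7558 at 4 weeks and between 4864 and 8236 at 8 weeks and did not pass the test (adjusted p = 0.829). Kcnj8, a potassium channel subunit of pericytes, rose from 199 ± 15.4 to 272 ± 18.7 (log2 change 0.43 ± 0.074, adjusted p = 0.019), a call that ended without 4-week replicate 2 (adjusted p = 0.0549). Without the muscle-high arrays, Mfap4 alone of the fibroblast list and Hhip alone of the smooth muscle list were called. In these bulk samples fewer cells of a type and less RNA per cell cannot be told apart.

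Genes that are active in fetal growth were followed next. Of 29 tested imprinted and fetal growth genes 5 fell and 0 rose, with a median log2 change of -0.16. Mest, an imprinted gene expressed from the paternal copy, gave 799.8, 810.3, 773, 756 and 724 at 4 weeks and 468, 533, 485, 407 and 455 at 8 weeks. The lowest 4-week value was well above the highest 8-week value (log2 change -0.70 ± 0.077, adjusted p = 0.0045). Peg3, an imprinted zinc finger protein, fell from 1176 ± 108 to 747 ± 92.3 (log2 change -0.65 ± 0.10, adjusted p = 0.0111). Cdkn1c, an imprinted inhibitor of cyclin-dependent kinases, fell from 1747 ± 163 to 1157 ± 67.5 (log2 change -0.58 ± 0.078, adjusted p = 0.00803).

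Meg3, an imprinted long non-coding RNA, fell with a log2 change of -0.70 on its brightest probe set (adjusted p = 0.00963). Of 9 Meg3 probe sets past the filter all had the same sign, but with their median in place of the brightest one the log2 change was -0.26 and the adjusted p 0.388. Mdk, midkine, a heparin-binding growth factor of development, gave 711, 689, 690.5, 635 and 718 at 4 weeks and 439, 475, 472, 487 and 429 at 8 weeks. Spread within each age was small and the groups did not overlap (log2 change -0.57 ± 0.064, adjusted p = 0.0045). At 1 week Mest averaged 8295 and Mdk 4983, far above both later ages. Mest, Meg3 and Mdk were called without the muscle-high arrays, and Peg3 (adjusted p = 0.0506) and Cdkn1c (adjusted p = 0.0532) were not. All 5 were called in each fit that left out 1 array. Nrep, a neuronal regeneration related protein also known from fibroblasts, fell 1.81-fold from 8447 ± 1407 to 4666 ± 689 (log2 change -0.85 ± 0.13, adjusted p = 0.0126).

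The growth hormone and insulin-like growth factor axis was examined as a list of 22 tested genes. Of these 0 passed the test by limma and 4 had an unadjusted p below 0.05. With 1.74% called over all tested genes, a count of 0 in so short a list is near the background. The median log2 change was 0.032. Igf1 gave 1598, 1583, 1559, 1089 and 1228 at 4 weeks and 877, 896, 1154, 1158 and 1022 at 8 weeks. The ages overlapped, with a log2 change of -0.45 (adjusted p = 0.115). Igf2, the fetal growth factor, was at 404 ± 37.3 and 339.9 ± 29.4 (adjusted p = 0.198), after a mean of 1687 at 1 week. Ghr, the growth hormone receptor, was at 2365 ± 168 and 2556 ± 206 (adjusted p = 0.498).

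Cell cycle genes also gave 0 calls by limma among 55 tested, a count again near that background, with 10 at an unadjusted p below 0.05. Their median log2 change was -0.10. Mki67, a nuclear protein of dividing cells, gave 487, 406, 449, 331 and 547 at 4 weeks and 373, 396, 571, 389 and 336 at 8 weeks, with overlapping groups (adjusted p = 0.767). Birc5, survivin, which acts at the centromere in mitosis, lay between 219 and 272 at 4 weeks and between 184 and 260 at 8 weeks (adjusted p = 0.761). At 1 week these genes averaged 1836 and 685. The labels describe a slower growth rate at 8 weeks, and no difference in these genes was detected with 5 arrays per age.

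**Figure D3:**
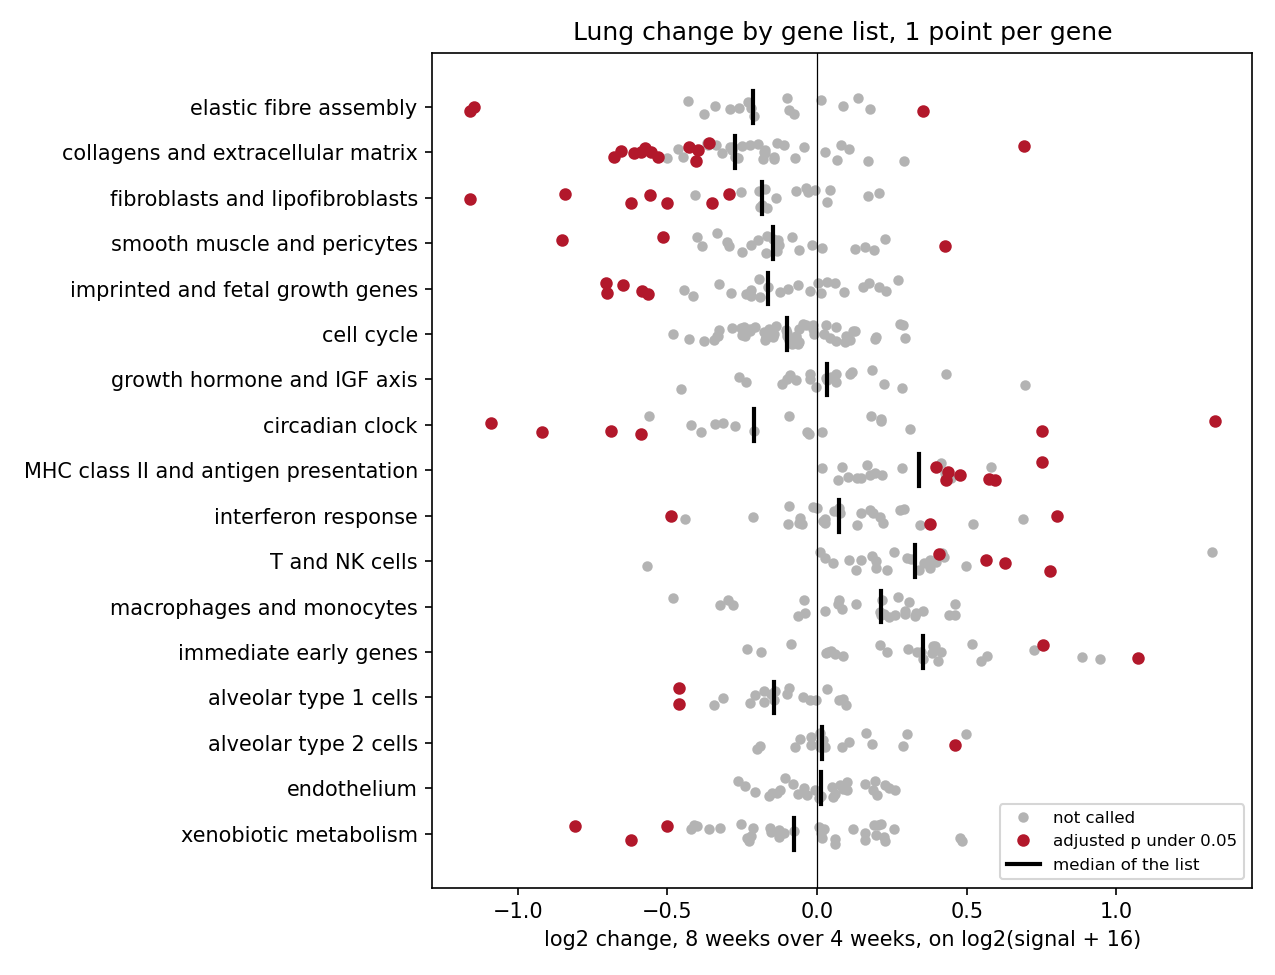
Each point is the log2 change of 1 tested gene from 4 to 8 weeks, arranged by gene list, with called genes in red and the list median as a black bar. Called points lie left of 0 for collagens (11 of 12) and imprinted genes (5 of 5) and right of 0 for MHC class II and antigen presentation (7 of 7), and the cell cycle list has 0 called points.

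Circadian clock genes held some of the largest differences in both directions. The labels do not give the hour at which tissue was taken. Of 21 tested clock genes 2 rose and 4 fell, with a median log2 change of -0.21. The activator Arntl (BMAL1) pairs with CLOCK on E-box elements. The repressor Nfil3 opposes the PAR leucine zipper factors Dbp, Tef and Hlf at D-box elements, and the PER proteins block the activator pair. Promoter stretches of 4 of these genes are given first, so that the elements can be seen where they occur. They are the 250 bases before an annotated start in RefSeq on GRCm38.p6, written 5′ to 3′ on the gene's strand. Capitals mark a D-box (TTANGTAA) in Per3, an E-box (CACGTG) in Tef and the reverse complement of the RORE core (AGGTCA) in Nfil3, and Dbp is shown as a window with none of these letters.
Per3, chr4:151044666-151044915, minus strand: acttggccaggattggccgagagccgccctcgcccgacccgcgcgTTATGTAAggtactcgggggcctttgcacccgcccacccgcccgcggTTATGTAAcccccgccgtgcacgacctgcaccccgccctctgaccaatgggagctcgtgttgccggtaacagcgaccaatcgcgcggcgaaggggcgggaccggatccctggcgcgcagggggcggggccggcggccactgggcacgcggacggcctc
Tef, chr15:81802423-81802672, plus strand: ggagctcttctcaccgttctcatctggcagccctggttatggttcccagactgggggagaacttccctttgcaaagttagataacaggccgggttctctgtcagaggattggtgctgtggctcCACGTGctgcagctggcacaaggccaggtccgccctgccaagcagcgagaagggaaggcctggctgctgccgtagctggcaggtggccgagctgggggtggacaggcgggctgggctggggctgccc
Nfil3, chr13:52981040-52981289, minus strand: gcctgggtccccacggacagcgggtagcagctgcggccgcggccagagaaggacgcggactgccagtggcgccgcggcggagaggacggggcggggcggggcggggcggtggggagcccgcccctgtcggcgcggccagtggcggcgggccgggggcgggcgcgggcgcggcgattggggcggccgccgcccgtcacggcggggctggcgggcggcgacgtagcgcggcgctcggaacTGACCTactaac
Dbp, chr7:45704997-45705246, plus strand: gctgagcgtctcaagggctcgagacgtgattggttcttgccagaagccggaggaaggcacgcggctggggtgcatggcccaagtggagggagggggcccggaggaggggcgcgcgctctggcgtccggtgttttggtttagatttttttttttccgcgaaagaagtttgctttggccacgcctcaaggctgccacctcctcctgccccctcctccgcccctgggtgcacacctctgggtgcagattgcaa
Both strands were searched in the windows of 6 clock genes, and those of Arntl, Dbp and Hlf held none of these letters. Arntl and Tef each have 2 annotated starts, of which only the first listed was used. The D-boxes of Per3 span bases -205 to -198 and -158 to -151 before the start, the E-box of Tef spans -127 to -122, and the RORE core of Nfil3 spans -12 to -7. Of 32851 RefSeq windows of this length 2.06% hold the D-box letters, 6.02% the E-box letters and 14.0% the RORE core. A match is a run of letters and not a shown binding site.

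Arntl gave 211, 121, 209, 234 and 189 at 4 weeks and 590.1, 425, 505, 422 and 576 at 8 weeks. Every 8-week array was higher, and Arntl rose 2.51-fold (log2 change 1.33 ± 0.16, adjusted p = 0.00482). A second Arntl probe set did not do so, with means of 332 and 303 and a log2 change of -0.14 (unadjusted p = 0.276), so the rise rests on 1 of 2 probe sets. Nfil3 gave 138, 111, 198, 122 and 109 at 4 weeks and 206, 291, 213, 238 and 230.1 at 8 weeks, and the 4-week replicate 3 came close to the lowest 8-week arrays. Nfil3 rose with a log2 change of 0.75 (adjusted p = 0.0324). The call was held only without 4-week replicate 3 or 8-week replicate 1, and the adjusted p reached 0.0878 in the other 8 fits that left out 1 array.

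The factors that fell were those opposed by Nfil3, and Per3. Per3 gave 1299.5, 1365, 1213, 1459 and 1387 at 4 weeks and 704, 598, 707, 808 and 708 at 8 weeks. It fell 1.89-fold without overlap (log2 change -0.92 ± 0.086, adjusted p = 0.00315), and its 5 probe sets past the filter had the same sign. Dbp gave 3753, 3999.7, 2297, 3937 and 3128 at 4 weeks and 1491, 1357, 2003, 1627 and 1443 at 8 weeks. Its closest arrays were 4-week replicate 3 and 8-week replicate 3 (log2 change -1.09 ± 0.16, adjusted p = 0.00976). Hlf fell from 864 ± 72.9 to 533 ± 76.2 (log2 change -0.69 ± 0.10, adjusted p = 0.0103). Tef fell from 6006 ± 755 to 3979 ± 412 (log2 change -0.59 ± 0.10, adjusted p = 0.0204), though not without 4-week replicates 2 or 5 or 8-week replicate 2 (adjusted p up to 0.0619).

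Other clock members did not pass. Per2 gave 1428, 1584, 1464, 1728 and 1261 at 4 weeks and 758, 934, 1139.7, 1206 and 1036 at 8 weeks, which did not overlap, with an adjusted p of 0.0546. Nr1d1, the repressor REV-ERB alpha, was at 1236 ± 247 and 1421 ± 178 (adjusted p = 0.449). Without the muscle-high arrays Arntl (adjusted p = 0.0456), Dbp (0.0447) and Per3 (0.0388) were called, and Hlf (0.0517), Tef (0.119) and Nfil3 (0.0908) were not. Per3 was the only gene named here and called with all arrays that was called in each of the 24 other settings run. At 1 week the means were 709 for Arntl, 384 for Dbp and 481 for Per3. These put 4-week Arntl below the younger and the older age, and 4-week Dbp and Per3 above them.

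**Figure D4:**
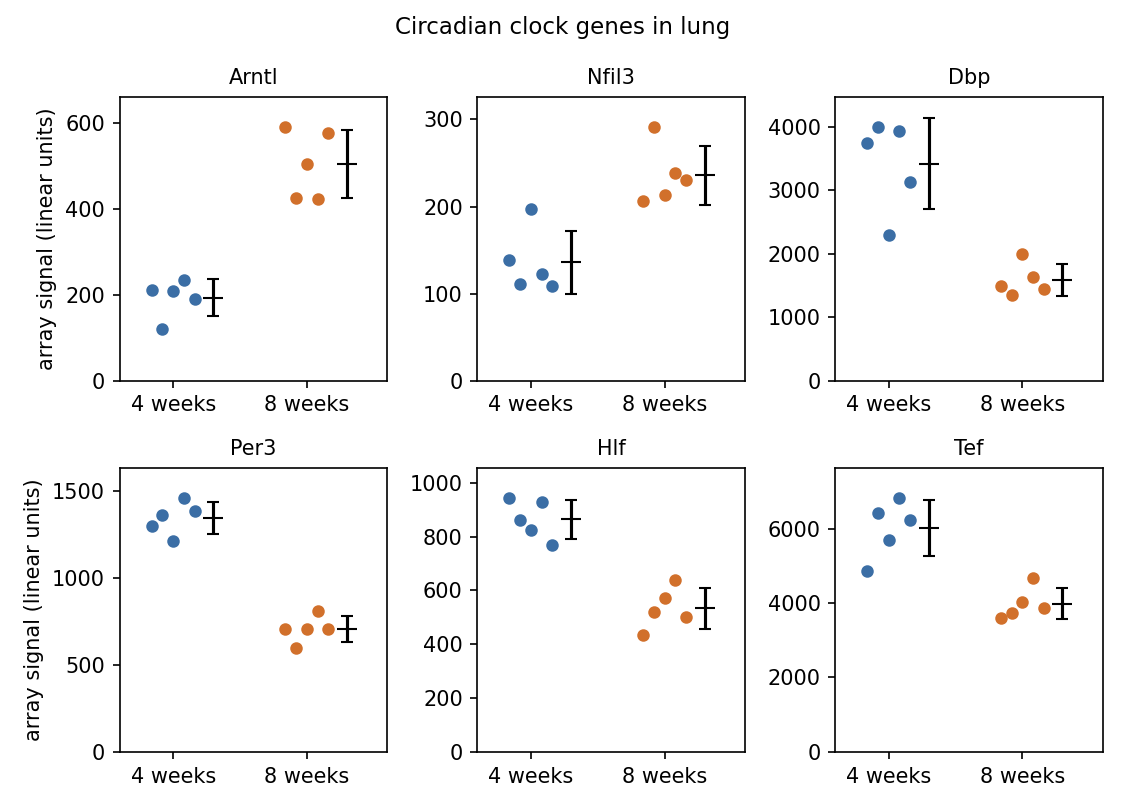
Linear array signals of 6 clock genes, with 5 arrays at 4 weeks (blue) and 5 at 8 weeks (orange); black marks are the mean and SD. Arntl and Nfil3 are higher in every 8-week array and Dbp, Per3, Hlf and Tef lower in every one.

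Some antigen presentation genes rose with all arrays in the fit. Of 22 tested genes 7 rose, 0 fell and the other 15 did not pass, and the median log2 change was 0.34. The count without the muscle-high arrays was 0 by limma, with 9 genes at an unadjusted p below 0.05 and a median of 0.20. The share of all tested genes at that threshold was not counted in that fit, so the 9 cannot be read against a background. The B and plasma cell list, whose cells also carry class II molecules, had a median of 0.42 with all arrays and of 0.071 without those 2, and 0 of its 26 tested genes were called by limma (6 at an unadjusted p below 0.05). The part of B cells in the class II values was not tested beyond these figures. The class II windows below are shown because both hold a Y-box (CTGATTGG, in capitals). Of all 32851 windows, 3.83% hold these letters at any position.
H2-Eb1, chr17:34305617-34305866, plus strand: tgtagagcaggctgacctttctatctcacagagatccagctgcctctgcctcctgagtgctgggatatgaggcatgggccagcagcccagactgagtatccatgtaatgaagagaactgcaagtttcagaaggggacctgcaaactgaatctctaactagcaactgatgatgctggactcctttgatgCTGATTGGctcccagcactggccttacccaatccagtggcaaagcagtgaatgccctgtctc
H2-Aa, chr17:34287824-34288073, minus strand: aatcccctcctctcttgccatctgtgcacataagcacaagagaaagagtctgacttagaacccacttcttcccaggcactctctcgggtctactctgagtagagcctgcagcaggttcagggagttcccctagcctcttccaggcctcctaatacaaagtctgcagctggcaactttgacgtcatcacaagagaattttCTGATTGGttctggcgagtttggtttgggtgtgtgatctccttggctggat
The Y-box spans bases -62 to -55 in H2-Eb1 and -51 to -44 in H2-Aa, and the same search found none in the window of H2-DMa. That window belongs to the first listed of 2 annotated starts, and no window was found for Ciita.

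H2-Eb1, a gene for a class II beta chain, gave 3608, 3961, 4816, 4768 and 4442 at 4 weeks and 7419, 7189, 8615, 6506 and 6623 at 8 weeks. All 8-week arrays were higher (log2 change 0.75 ± 0.11, adjusted p = 0.00963). H2-Aa, the alpha chain of I-A, gave 11655, 10978, 11105, 11499.8 and 10858 at 4 weeks and 14822, 15126, 15566, 15139 and 13389 at 8 weeks. It rose 1.32-fold with narrow spread (log2 change 0.40 ± 0.063, adjusted p = 0.0126). H2-DMa, which helps load peptide onto class II, rose from 769.5 ± 102 to 1166 ± 119 (log2 change 0.59 ± 0.10, adjusted p = 0.019), and leaving out 4-week replicate 2 ended that call (adjusted p = 0.0517). The 1-week means of 1506 for H2-Eb1 and 4555 for H2-Aa were lower than at both later ages.

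Batf3, a transcription factor of cross-presenting dendritic cells, rose from 166 ± 10.97 to 256 ± 38.2 (log2 change 0.57 ± 0.10, adjusted p = 0.0168), a call that ended without 4-week replicate 2 (adjusted p = 0.0541). Ciita, the master regulator of class II transcription, gave 172, 211, 185, 229.5 and 173 at 4 weeks and 307, 246, 284, 252 and 292 at 8 weeks (log2 change 0.48 ± 0.10, adjusted p = 0.035). It was called in 3 of 10 fits that left out 1 array, those without 4-week replicate 4, 8-week replicate 2 or 8-week replicate 4, and the adjusted p reached 0.0845 in the others. With the median of its probe sets the log2 change was 0.87 (adjusted p = 0.193). The immunoproteasome subunits Psmb8 (log2 change 0.43) and Psmb9 (0.44) were each called in 1 of 10, without 8-week replicate 4, with adjusted p up to 0.116 and 0.0976, and Psmb9 was not called with the poly-A block (0.0552). With the median of their probe sets the adjusted p was 0.18 for Psmb8 and 0.0505 for Psmb9. Cd74, the invariant chain that chaperones class II, was at 15628 ± 2515 and 18850.4 ± 1441 and did not pass (adjusted p = 0.244). Without 8-week replicate 3 alone, H2-Eb1, H2-Aa, H2-DMa and Batf3 were still called.

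Among 28 tested T and natural killer cell genes 4 rose and 0 fell, with a median log2 change of 0.33. The median was 0.22 without the muscle-high arrays and 0.14 with the muscle mean as a covariate. Cd2, an adhesion molecule of T and NK cells, gave 186, 159.6, 164, 255 and 231 at 4 weeks and 315, 362, 474, 298 and 312 at 8 weeks. The highest value was in 8-week replicate 3 (log2 change 0.78 ± 0.15, adjusted p = 0.0323). Klra8, an NK cell receptor of the Ly49 family, gave 71.8, 93.0, 88.4, 89.3 and 76.3 at 4 weeks and 136, 142, 143, 130.0 and 136 at 8 weeks, with little spread (log2 change 0.63 ± 0.075, adjusted p = 0.00482). Its probe set may also bind transcripts of other Ly49 genes, and the 1-week mean was 3.1. Eomes, a transcription factor of NK and memory T cells, and Klrk1, the receptor NKG2D, rose with log2 changes of 0.56 and 0.41.

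Of these 4 only Klra8 was called without the muscle-high arrays (adjusted p = 0.0456) and in all 10 fits that left out 1 array. The 4-week means of Klra8 (83.8) and Eomes (98.6) lay under the filter of 117.9, where signals are near background. The sizes of their rises are therefore uncertain. Cd2 was called only without 4-week replicate 4 or 8-week replicate 4, with adjusted p up to 0.0855 otherwise. Eomes was called only without 4-week replicate 3 or 8-week replicate 5, with adjusted p up to 0.105, and not with the poly-A block (0.0515). Klrk1 was called only without 8-week replicate 4, with adjusted p up to 0.0828. The mean over the list ran from 7.59 to 7.87 at 4 weeks and from 7.78 to 8.22 at 8 weeks, highest in replicate 3.

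Interferon-inducible genes went both ways. Of 29 tested 2 rose and 1 fell, with a median of 0.072. The guanylate-binding protein Gbp6 gave 482, 552, 575, 502 and 564 at 4 weeks and 1409.5, 838, 955, 805 and 814 at 8 weeks. Replicate 1 was the highest of the 8-week arrays (log2 change 0.80 ± 0.14, adjusted p = 0.0222), and the call ended without 4-week replicates 2, 4 or 5 or 8-week replicate 3 (adjusted p up to 0.0556). A relative outside the list, Gbp8, rose from 141 ± 17.2 to 263 ± 48.6 (log2 change 0.82 ± 0.13, adjusted p = 0.0121), a call lost without the muscle-high arrays (adjusted p = 0.0759). Cd274, the ligand PD-L1 that restrains T cells, rose from 232 ± 19.2 to 366 ± 48.1 (log2 change 0.62 ± 0.095, adjusted p = 0.0117) and was called without the muscle-high arrays too (adjusted p = 0.0472).

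Oas1a, a sensor enzyme of double-stranded RNA, rose from 646 ± 14.2 to 844 ± 43.4 (log2 change 0.38 ± 0.06, adjusted p = 0.0126). Its call ended without the muscle-high arrays (adjusted p = 0.09) and with all lung ages in 1 fit (0.238). Ifit3, an antiviral protein, fell from 1546 ± 172 to 1096 ± 107 (log2 change -0.49 ± 0.094, adjusted p = 0.0288), but was called only without 4-week replicate 1 or 8-week replicate 5, with adjusted p up to 0.0829 otherwise. Macrophage and monocyte genes gave 0 calls by limma among 28 tested (11 at an unadjusted p below 0.05), with a median of 0.21, and of 0.13 without the muscle-high arrays. Siglecf, a lectin of alveolar macrophages, gave 412, 442, 408, 354 and 412 at 4 weeks and 629.6, 659, 440.5, 539.8 and 572 at 8 weeks (adjusted p = 0.0571). Marco, a scavenger receptor of the same cells, was at 385 ± 61.3 and 274 ± 60.03 (adjusted p = 0.157).

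Immediate early genes, which cells switch on within minutes of a stimulus, gave 2 calls among 27 tested, both higher at 8 weeks, and a median log2 change of 0.35. Egr1, a zinc finger factor of this class, gave 2390.4, 1759, 2166, 1112 and 2103 at 4 weeks and 3031, 5312, 3932, 3357 and 4211 at 8 weeks. It rose 2.10-fold (log2 change 1.07 ± 0.21, adjusted p = 0.0311), and the call ended without 4-week replicates 2 or 5 or 8-week replicates 2, 3 or 5 (adjusted p up to 0.0832). Klf2, a factor of endothelium under flow and of resting T cells, rose from 3611 ± 755 to 6067 ± 979.7 (log2 change 0.76 ± 0.16, adjusted p = 0.0384). It was called only without 4-week replicates 2 or 3 or 8-week replicate 5, with adjusted p up to 0.0921 otherwise, and not with the poly-A block (0.0568). Fos gave 2276, 1469, 1503, 1058 and 1949.9 at 4 weeks and 2729, 4324, 2593, 2679 and 2785 at 8 weeks and did not pass (adjusted p = 0.055).

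Without the muscle-high arrays 0 genes of the immediate early list were called by limma, against 0.374% of all tested genes, with a median of 0.41. An unadjusted p below 0.05 by limma was found for 18 of 27 in that fit. The share of all tested genes at that threshold was not counted there, so the 18 cannot be read against a background. Cdkn1a, the cell cycle inhibitor p21, gave 1349, 1347, 2068, 1434 and 1299 at 4 weeks and 2281, 2611, 2117, 2691 and 2788 at 8 weeks. It rose 1.68-fold with 4-week replicate 3 just below the 8-week range (log2 change 0.74 ± 0.13, adjusted p = 0.0216), and the call ended without 4-week replicates 2, 4 or 5 or 8-week replicate 2 (adjusted p up to 0.0646). It was the 1 called gene of 23 in the glucocorticoid response list, whose median was 0.0015. Fkbp5, a glucocorticoid-induced chaperone partner, was at 2665 ± 442 and 1732 ± 329 (adjusted p = 0.0546).

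Alas2 and Bpgm, genes of red blood cell function, fell. Alas2, the erythroid enzyme that starts haem synthesis, gave 2483, 2090.3, 2429, 2788 and 2494 at 4 weeks and 1207, 1325, 1891, 1391 and 1227 at 8 weeks, and every 8-week array was lower (log2 change -0.81 ± 0.12, adjusted p = 0.0119). Bpgm, which makes the 2,3-bisphosphoglycerate that loosens oxygen from haemoglobin, gave 1523, 1182, 1486, 1443 and 1531 at 4 weeks and 714, 968, 959.6, 826 and 738 at 8 weeks (log2 change -0.76 ± 0.11, adjusted p = 0.00963). Both were called without the muscle-high arrays, and at 1 week they averaged 9834 and 3662. Of the 11 tested erythroid and platelet genes Alas2 was the 1 called, and the median was -0.14.

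The lists that define the lung's own epithelium and endothelium are read against the 1.74% called over all tested genes. Of 21 tested alveolar type 2 genes 1 rose and 0 fell, with a median of 0.017. That gene was Abca3, the lipid transporter of lamellar bodies, with 3952, 3754, 4196, 4393 and 4300.0 at 4 weeks and 5427, 5909, 5297, 6302 and 5429 at 8 weeks (log2 change 0.46 ± 0.074, adjusted p = 0.0129). The call ended without the muscle-high arrays (adjusted p = 0.0517), and with the median of its 3 probe sets the adjusted p was 0.213. Sftpc was at 28641 ± 5549 and 28491 ± 3042 (adjusted p = 0.981).

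Of 20 tested alveolar type 1 genes 2 fell, with a median of -0.14. Both encode chains of the collagen IV of the alveolar basement membrane. Col4a4 fell from 4019 ± 167 to 2922 ± 262 (log2 change -0.46 ± 0.074, adjusted p = 0.0127), and Col4a3 from 2518 ± 214 to 1830.1 ± 214 (log2 change -0.46 ± 0.10, adjusted p = 0.0432). Col4a3 was called in 1 of 10 fits that left out 1 array, the one without 4-week replicate 1, with adjusted p up to 0.106, and neither was called without the muscle-high arrays (0.0899 for Col4a4 and 0.148 for Col4a3). With the median of its probe sets Col4a4 was not called (0.112). Ager was at 23448 ± 3473 and 22923 ± 1816 (adjusted p = 0.938).

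Airway genes gave 0 calls by limma among 22 tested (1 at an unadjusted p below 0.05), with a median of -0.13. Scgb1a1 was at 34416 ± 5791 and 33150.1 ± 2259 (adjusted p = 0.893), and Foxj1, the master factor of motile cilia, at 819 ± 107 and 698 ± 100.02 (adjusted p = 0.347). Endothelial genes gave 0 calls by limma among 29 tested (6 at an unadjusted p below 0.05), with a median of 0.012. Pecam1, an adhesion molecule of endothelial junctions, was at 4084 ± 547 and 3983 ± 432 (adjusted p = 0.912).

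Among 37 tested genes of xenobiotic metabolism 3 fell and 0 rose, with a median of -0.078. Akr1c14, a hydroxysteroid dehydrogenase, gave 2407, 3164, 3131, 3096 and 3339.8 at 4 weeks and 1545, 1856, 1724, 1837 and 1616 at 8 weeks. It fell 1.75-fold without overlap (log2 change -0.81 ± 0.10, adjusted p = 0.00482) and was called without the muscle-high arrays (adjusted p = 0.0447). Fmo2, the lung's flavin monooxygenase, fell from 14259 ± 2064 to 9223 ± 1020.0 (log2 change -0.62 ± 0.12, adjusted p = 0.0261), but not without 4-week replicates 2, 3, 4 or 5 or 8-week replicate 3 (adjusted p up to 0.068). Its mean at 1 week was 1840.2. Adh1, an alcohol dehydrogenase that also oxidises retinol, fell from 7458 ± 697 to 5259 ± 410.0 (log2 change -0.50 ± 0.083, adjusted p = 0.0146). The calls of Fmo2 (0.133) and Adh1 (0.0899) ended without the muscle-high arrays.

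Several of the largest differences lay outside these lists. Chrdl1, a secreted antagonist of bone morphogenetic proteins, gave 193, 202, 147, 99.9 and 186 at 4 weeks and 418, 445, 315, 348 and 373 at 8 weeks. It rose 2.22-fold (log2 change 1.15 ± 0.17, adjusted p = 0.00976), and all 4 of its probe sets past the filter had the same sign. Slc6a20a, a transporter of proline and other imino acids, gave 56.8, 81.2, 81.1, 50.6 and 42.2 at 4 weeks and 128, 144, 169, 127 and 145 at 8 weeks. It rose 2.06-fold from a level under the filter of 118 (log2 change 1.04 ± 0.15, adjusted p = 0.00963). Slc43a2, a transporter of large neutral amino acids, rose from 1517 ± 289 to 2749 ± 169 (log2 change 0.87 ± 0.12, adjusted p = 0.00963), although with the median of its probe sets the log2 change was 0.18 and the adjusted p 0.388.

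Vps33b, a protein of vesicle tethering, gave 65.5, 52.8, 112, 96.2 and 119.7 at 4 weeks and 134, 247, 336, 217 and 249.8 at 8 weeks (log2 change 1.26 ± 0.24, adjusted p = 0.0287). Its call was held only without 4-week replicates 3 or 5 or 8-week replicate 1, with adjusted p up to 0.0691 otherwise. Mreg, melanoregulin, which acts in the transport of melanosomes and lysosomes, rose from 105 ± 13.5 to 189 ± 34.2 (log2 change 0.75 ± 0.12, adjusted p = 0.0127). The 4-week means of Vps33b (89.3) and Mreg lay under the filter of 117.9, where signals are near background, so the sizes of both rises are uncertain. Clu, the secreted chaperone clusterin, rose from 3696 ± 283 to 5263 ± 605 (log2 change 0.50 ± 0.094, adjusted p = 0.0257). Clu was called without both muscle-high arrays (adjusted p = 0.0388) but in only 2 of 10 fits that left out 1 array, those without 4-week replicate 4 or 8-week replicate 1, with adjusted p up to 0.073 otherwise. Without the muscle-high arrays Chrdl1 (0.0517), Slc6a20a (0.0522) and Mreg (0.0635) lost their calls, and Slc43a2 (0.0456) and Vps33b (0.0489) did not.

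Among the falls, Gria3, a subunit of AMPA-type glutamate receptors, gave 416, 441, 445, 400.5 and 399 at 4 weeks and 162, 94.9, 184, 179 and 206 at 8 weeks. It fell 2.47-fold with a wide gap between the ages (log2 change -1.30 ± 0.16, adjusted p = 0.00482) and was 1 of 2 named genes, with Per3, that were called with the muscle mean as a covariate. Spink5, a serine protease inhibitor of barrier epithelia, gave 184, 247, 152, 279 and 214 at 4 weeks and 99.2, 64.9, 40.9, 55.3 and 95.1 at 8 weeks (log2 change -1.43 ± 0.21, adjusted p = 0.00976). Rab3c, a small GTPase of secretory vesicles, gave 160.1, 190.5, 163, 194 and 302 at 4 weeks and 37.3, 42.2, 59.4, 77.9 and 95.0 at 8 weeks (log2 change -1.50 ± 0.22, adjusted p = 0.00976). The 8-week values of both genes lay under the filter of 118, where signals are near background.

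A2m, the protease trap alpha-2-macroglobulin, fell from 219 ± 48.1 to 105 ± 8.41 (log2 change -0.93 ± 0.13, adjusted p = 0.00803). Its 8-week mean also lay under the filter of 117.9. Ccna1, cyclin A1, known from male germ cells, had the largest fitted fall. It gave 79.6, 161, 99.1, 172 and 165 at 4 weeks and 10.1, 24.5, 17.6, 63.6 and 72.1 at 8 weeks (log2 change -1.61 ± 0.34, adjusted p = 0.0431), dim throughout. It was called only without 4-week replicate 1 or 8-week replicates 4 or 5, with adjusted p up to 0.107 otherwise, and not with the poly-A block (0.0641). Gria3, Spink5 and A2m were called without the muscle-high arrays, and Rab3c (0.0635) and Ccna1 (0.185) were not.

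The kidneys of the same ages, 5 arrays each, show where the lung differed. In a fit of these 20 arrays the change from 4 to 8 weeks differed between the organs for 88 of 14362 genes (0.613%) by limma, 50 with the higher log2 change in lung and 38 with the lower. For 6 of the 88 both kidney means, and for 7 both lung means, lay under the filter, so the organ difference there rests on 1 organ. Sample descriptions give 3 animal numbers at each age to both organs, and with animal as a random block 97 genes were called. In kidney itself 213 genes (1.48%) were called. Of the 232 genes called in lung, 28 had a called difference from kidney. The difference was called for 35 genes without the muscle-high lungs, and for 39 to 48 without 4-week replicates 2, 3 or 4 or 8-week replicate 3.

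The mitotic genes Birc5, Cenpa and Mki67 differed between the organs. Birc5 averaged 239 and 228 in lung and 203 ± 34.9 and 14.9 ± 3.17 in kidney at 4 and 8 weeks, with a log2 change of -2.82 in kidney (difference in log2 change 2.74 ± 0.16 SE, adjusted p = 1.15e-08). Cenpa, the centromeric histone, averaged 287 and 304 in lung and 134 ± 10.5 and 29.9 ± 21.6 in kidney (1.90 ± 0.31 SE, adjusted p = 0.0049). The 8-week kidney means of all 3 genes lay under the filter of 118, where signals are near background, so the sizes of their kidney falls and organ differences are uncertain. Mki67 averaged 337 ± 79.8 and 114 ± 44.7 in kidney against its lung means of 444 and 413 (1.39 ± 0.30 SE, adjusted p = 0.0369). The Mki67 difference was lost without the muscle-high lungs (adjusted p = 0.132) and in 8 of 10 fits that left out 1 lung array, and held without 4-week replicate 5 or 8-week replicate 5.

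Other differences lay in genes named above. Mfap4 was near background in kidney at both ages, with means of 8.4 ± 2.92 and 11.8 ± 5.22, so a kidney change could not be measured. Mest averaged 293 ± 47.5 and 308 ± 24.4 in kidney (-0.78 ± 0.14 SE, adjusted p = 0.0115), and Mdk 1332 ± 205 and 1533 ± 51.6 (-0.78 ± 0.12 SE, adjusted p = 0.00414), so that both fell in lung relative to kidney. Akr1c14 went in opposite directions, from 383 ± 97.2 to 962 ± 287 in kidney (-2.09 ± 0.26 SE, adjusted p = 0.000403). Adh1 averaged 7550.1 ± 1021 and 8709 ± 462 in kidney (-0.72 ± 0.13 SE, adjusted p = 0.0177), a difference lost without the muscle-high lungs (adjusted p = 0.0728).

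Slc6a20a averaged 1166 ± 110.4 and 979 ± 143 in kidney, where it is bright, and rose in lung relative to that (1.30 ± 0.20 SE, adjusted p = 0.00297). Mreg averaged 355 ± 42.5 and 171 ± 33.9 in kidney, opposite to its rise in lung (1.75 ± 0.19 SE, adjusted p = 0.0001). The 4-week lung means of Slc6a20a (62.4) and Mreg (105) lay under the filter of 117.9, near background, so the sizes of both organ differences are uncertain. Esm1, a proteoglycan secreted by endothelial tip cells, averaged 419 and 261 in lung, where it did not pass the test (adjusted p = 0.051). In kidney it averaged 246 ± 46.6 and 566 ± 66.5, and the difference was called (-1.80 ± 0.20 SE, adjusted p = 0.0001).

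Clock and collagen genes can be set beside the kidney as well. Arntl rose in kidney with a log2 change of 1.01 (adjusted p = 0.0272), and its change did not differ between the organs by the test (difference 0.32, adjusted p = 0.768). Per3 fell in kidney with a log2 change of -0.67 (difference -0.25 ± 0.13 SE, adjusted p = 0.489), and that difference was not called. Hlf did not pass the test in kidney, at 1931 ± 191 and 1979 ± 222, and the difference from its fall in lung was called (-0.72 ± 0.15 SE, adjusted p = 0.0346). That call was lost without the muscle-high lungs (adjusted p = 0.092) and in 7 of 10 fits that left out 1 lung array (adjusted p up to 0.071), and held without 4-week replicate 5, 8-week replicate 3 or 8-week replicate 4. Of the collagens, Col6a1 had a log2 change of -0.72 in kidney against -0.57 in lung, and the difference of 0.14 was not called (adjusted p = 0.685). Nid1 had -0.39 in kidney against -0.56 in lung (difference -0.17, adjusted p = 0.687).

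**Figure D5:**
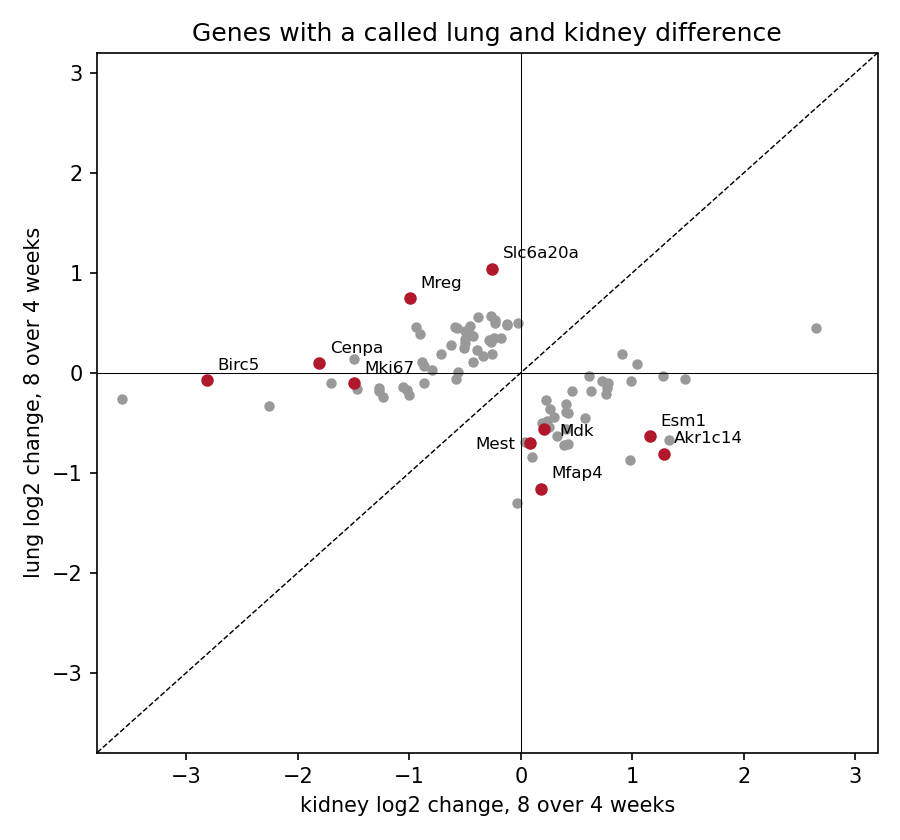
Each point is 1 of the 88 genes whose log2 change from 4 to 8 weeks differed between lung (vertical) and kidney (horizontal), with named genes in red and the line of equal change dashed. Birc5 lies at -2.82 in kidney and -0.071 in lung, and Akr1c14 at 1.28 in kidney and -0.81 in lung.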

How the data were processed

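Per the labels, Trizol-extracted total RNA was labelled with biotin and hybridised to Affymetrix arrays. The deposited values are linear intensity values, scaled so that each array's mean after trimming 2% at each end is 500. The submitters' processing notes name RMA and Partek 6.6 without their roles, and the values are not on the log scale that RMA writes. There are no detection calls.

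Of 45101 probe sets, 34958 carry 1 gene symbol in the platform annotation, 932 several and 9211 none, and only the first kind was used. For each of 18194 genes the probe set brightest on average over the 40 arrays stood for the gene, and log2(signal + 16) was analysed. Genes with both age means below 117.9, the 40th percentile of the deposited signals, were not tested. The model was fitted to the 10 lung arrays by lmFit and eBayes of limma (version 3.58.1, under R 4.3.3), with Benjamini-Hochberg adjustment over all 13365 genes and a threshold of 0.05, two-sided. The organ comparison was a contrast of changes in 1 limma fit of 20 arrays without an animal term; with the animal as a random block, the correlation within animals was 0.0663. Depth on arrays is signal over background, and the number of arrays, 5 per group, limits the precision.

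Tested on simulated data with 200 of 13365 genes changed, this lung fit recovered 66.3% of 1.5-fold, 90.5% of 2-fold and 98.6% of 4-fold changes, and 4.69% of its calls were false. The simulated noise was independent between genes and arrays, without the muscle or poly-A differences of the real arrays. These shares therefore do not measure the recovery or the false calls in the real data. Samples with the same replicate number deviated together with correlations from -0.10 to 0.27, so the numbers were not taken to pair the samples. Alternatives covered the offset, filter, normalization, probe set, arrays in the fit, array weights, a replicate block, the arrays high in muscle and each array left out. The 2 poly-A alternatives were chosen after seeing the data.

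The arrays and the 33 gene lists (1054 entries, 954 matched) were chosen with earlier results of these data known. The genes named follow a rule: the 15 largest rises and 15 largest falls without overlap between ages, the same among genes also called without the muscle-high arrays, up to 4 called genes of each list, the 5 largest organ differences per direction, and a fixed set of markers. The text names part of them. Mdk, Hlf, Tef, Col6a1, Col1a2, Nid1, Lamc1, Col5a2, Col16a1, Postn, Psmb8 and Psmb9 were added after their values were seen, as were the organ differences of Mdk, Hlf, Adh1, Mfap4, Mest, Mki67 and Slc6a20a. Promoter windows came from RefSeq on GRCm38.p6. Figures were drawn with Python 3.11.15 and matplotlib 3.10.9.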

Additional observations from a re-analysis of the deposited data

Results flagged for a closer look

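In 11 of 204 groups of 5 arrays examined, the highest or lowest array lay far from the other 4, where chance gives about 1 in 20 groups, or 10.2. The gap to the nearest array as a share of the group's range is given for each on the log2(signal + 16) scale. At 8 weeks Fos was high in replicate 2 (0.860), Ifit3 was high in replicate 5 (0.813), Col4a3 was low in replicate 1 (0.771), A2m was low in replicate 5 (0.737) and Rag1, the recombinase of immature lymphocytes, was low in replicate 4 (0.761), at a signal of 0.80 against 129 to 268. The mean over the B and plasma cell list was high in 8-week replicate 3 (0.819). At 4 weeks Cdkn1a was high in replicate 3 (0.788), Bpgm was low in replicate 2 (0.770), Akr1c14 was low in replicate 1 (0.768) and Cenpa was low in replicate 4 (0.762). Adipoq was high in 4-week replicate 4 (0.779), at 2579.7 against 324 to 517 in the others.

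The log2 change from 4 to 8 weeks differed between lung and kidney by limma for 12 of the genes named. The lung change minus the kidney change was 2.74 for Birc5, 1.90 for Cenpa, 1.75 for Mreg, 1.39 for Mki67 and 1.30 for Slc6a20a. It was -2.09 for Akr1c14, -1.80 for Esm1, -1.34 for Mfap4, -0.78 for Mest, -0.78 for Mdk, -0.72 for Hlf and -0.72 for Adh1. Both kidney means of Mfap4 and the 8-week kidney means of Birc5, Cenpa and Mki67 lay under the filter of 118, near background. So did the 4-week lung means of Slc6a20a and Mreg. Without the muscle-high lungs the differences of Hlf, Adh1 and Mki67 were not called, and those of Hlf and Mki67 were lost in 7 and 8 of 10 fits that left out 1 lung array.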

How the results depend on the processing

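With all arrays 232 genes were called, 101 higher and 131 lower at 8 weeks, and 15 at least 2-fold. Without a filter on dim genes the count was 99 (37 higher, 62 lower), with the 60th percentile filter 165 were higher, and with the median of a gene's probe sets 63 were higher. The replicate block gave 83 (23 higher, 60 lower), although the replicate numbers were not found to pair the samples. Without the muscle-high arrays 50 were called (12 higher, 38 lower), and with the muscle mean as a covariate 4 (0 higher, 4 lower, 2 at least 2-fold). Without the arrays high in poly-A controls, an alternative chosen after seeing the data, 7 were called (0 higher, 7 lower, 3 at least 2-fold). These last fits use fewer arrays or 1 more term, and any other cause was not tested. Leaving out 1 array at a time gave 82 to 185 calls (32 to 79 higher, 50 to 109 lower), with 82 without 4-week replicate 2, 140 without 4-week replicate 4, 101 without 4-week replicate 5, 141 without 8-week replicate 2 and 128 without 8-week replicate 3. The organ difference was called for 88 genes, 35 without the muscle-high lungs and 39 to 68 without 1 lung array.

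Of the 68 genes named and called, 27 were called without the muscle-high arrays, 63 with the poly-A block, 41 with the replicate block, 4 without the arrays high in poly-A controls, 42 in all 10 fits that left out 1 array and 1, Per3, in every setting. Among the genes named, values that changed sign belonged to genes that were not called, and of the called genes tested with the median of a gene's probe sets 218 of 219 kept their direction. With all lung ages in 1 fit 62 of the 68 were called; Cd2, Eomes, Klrk1, Kcnj8, Oas1a and Slc6a20a were not. Sftpc was at -0.37 with the median of its probe sets, -0.039 with array weights, -0.0746 without the arrays high in poly-A controls and -0.11 to 0.092 without 1 array. Ager was at 0.015 without the muscle-high arrays, 0.036 with the covariate, 0.012 with the poly-A block and -0.11 to 0.039 without 1 array. Scgb1a1 was at 0.020 after quantile normalization, 0.0032 with the poly-A block and -0.14 to 0.032 without 1 array. Pecam1 was at 0.011 with the poly-A block and -0.10 to 0.018 without 1 array, and Cenpa at -0.061 to 0.18 without 1 array. With the covariate Ckm, a muscle creatine kinase, was at -0.057 against 1.48 with all arrays, and Adipoq, an adipocyte hormone, at -0.72 against 0.86. Ckm is itself part of the muscle list behind the covariate, so the loss of its change follows from the fit and tests nothing.

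Signal over background limits these counts: genes with both age means below 117.9 were not tested. Probe sets without exactly 1 symbol were left out. Of 1.5-fold changes simulated with independent noise in the lung comparison, 66.3% were called.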
